A study of Mus musculus with 6 samples.

Results

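Synaptotagmins were measured through the 21 array probes named Syt1, Syt2, Syt3, Syt4, Syt5, Syt6, Syt7, Syt9, Syt11 and Syt13. These are 10 of 27745 gene names and 21 of 41174 probes on the array. The genes were chosen by their signal on the 6 arrays, namely a scaled level that was lower in blastocysts than in ooplasts. Their stage values are therefore given as a description, with no test. The study placed RNA of mouse blastocysts and ooplasts on 6 single-colour Agilent arrays, 1 sample to an array. An ooplast is an oocyte from which the chromosomes were removed, and a blastocyst is the embryo that has formed a trophectoderm around its inner cell mass. There were 2 arrays of climacteric blastocysts, 2 of young blastocysts, 1 of climacteric ooplasts and 1 of young ooplasts. All samples were of the B6C3 F1 strain, and the labels give age only as young or climacteric, a word for reproductive decline. The labels call the replicates biological but name neither animals nor pools, and they do not say how the blastocysts were made, while the title of the series speaks of somatic nuclear reprogramming. In such bulk samples fewer cells of a type and less RNA per cell cannot be told apart.

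Synaptotagmins are membrane proteins of vesicles with paired C2 domains, folds that in many members bind calcium and phospholipid. The calcium-binding members act as sensors that couple a rise in calcium to fusion of the vesicle with the plasma membrane by the SNARE proteins. Other members lack the calcium-binding residues and serve in membrane traffic. In the egg, calcium-triggered exocytosis releases the cortical granules after fertilisation, while the family is best known from neurons and endocrine cells.

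On the scale used first, the log2 signal minus the 75th percentile of the array (called the scaled level), the probes measured on every array stood lower on all 4 blastocyst arrays than on both ooplast arrays for Syt11, Syt1 and Syt3. Against each array's own background the difference kept its direction for Syt11 and Syt1 but was smaller, 4.01-fold and 4.25-fold in place of 11.3-fold and 12.0-fold, and it was 0.035 (log2) for Syt3. Of the 21 probes, 3 were well above background on all 6 arrays, 11 on some arrays and 7 on none, and of all probes 32.5%, 33.1% and 34.4% were so. Syt2 and Syt4 had no probe above background on any array. No member differed by age in blastocysts past the threshold. The 2 ooplast ages had 1 array each, and there the member probes that both arrays measured differed by -1.14 to 0.99 (climacteric minus young, log2).

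The 3 genes measured on all 6 arrays have annotated starts in RefSeq (GRCm38.p6), which held a promoter for 6 of the 10 genes. The 250 bases before each start are shown because these genes carry the stage values below. Each is written 5′ to 3′ on the strand of the gene, and capitals mark E-boxes, the letters CANNTG, which basic helix-loop-helix factors such as the oocyte factor FIGLA bind. Syt1 has 2 starts in the table, both on the minus strand, at chr10:109010976-109011225 and chr10:109009112-109009361. The Syt3 window lies at chr7:44383876-44384125 on the plus strand, and the Syt11 window at chr3:88772600-88772849 on the minus strand.
Syt1, first start: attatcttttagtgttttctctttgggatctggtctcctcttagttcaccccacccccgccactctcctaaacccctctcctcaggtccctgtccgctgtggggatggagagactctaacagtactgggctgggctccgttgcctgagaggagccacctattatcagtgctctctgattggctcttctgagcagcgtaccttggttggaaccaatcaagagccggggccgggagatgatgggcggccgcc
Syt1, second start: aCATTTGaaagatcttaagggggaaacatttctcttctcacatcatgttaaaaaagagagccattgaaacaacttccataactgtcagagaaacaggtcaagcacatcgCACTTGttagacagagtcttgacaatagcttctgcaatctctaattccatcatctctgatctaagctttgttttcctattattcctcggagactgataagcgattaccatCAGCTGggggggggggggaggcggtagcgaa
Syt3: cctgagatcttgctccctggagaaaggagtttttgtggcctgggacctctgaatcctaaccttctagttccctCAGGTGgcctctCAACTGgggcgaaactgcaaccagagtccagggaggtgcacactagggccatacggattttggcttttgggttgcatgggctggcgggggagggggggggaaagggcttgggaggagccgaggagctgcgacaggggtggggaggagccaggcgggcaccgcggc
Syt11: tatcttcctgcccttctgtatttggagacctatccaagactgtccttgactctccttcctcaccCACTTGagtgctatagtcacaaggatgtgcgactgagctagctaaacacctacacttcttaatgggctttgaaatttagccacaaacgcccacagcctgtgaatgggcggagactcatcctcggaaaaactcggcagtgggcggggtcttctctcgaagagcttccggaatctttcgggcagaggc

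The first Syt1 window held 0 E-boxes and the second 3, while the Syt3 window held 2 and the Syt11 window 1. An E-box reads the same class of letters on both strands, and 66.2% of 32851 promoters of the same length held at least 1. The GC box GGGCGG, searched on both strands, was found 2 times in the Syt11 window and 1 time in the first Syt1 window, and 32.7% of all promoters held it. Neither TATAAA (12.4% of all promoters) nor TAATTG, the letters bound by the oocyte homeobox factor NOBOX (7.17%), was found in these windows. No match to one motif shared bases with a match to another. The CpG counts were 8 and 5 for Syt1, 8 for Syt3 and 9 for Syt11, against a median of 6 over all promoters. These matches are letters in a window and say nothing of binding.

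The arrays differed by stage in ways that touch every value below. The 75th percentile of the signal was 721 to 1111 units on the blastocyst arrays and 235 to 238 units on the ooplast arrays. Between 49.9% and 57.3% of spots were well above background in blastocysts, against 42.2% and 42.4% in ooplasts. Over the 14166 probes well above background on no array, the median scaled level was -6.07, -5.82, -5.43 and -5.70 on the blastocyst arrays and -4.17 and -4.35 on the ooplast arrays. The median of these probes thus differed by -1.50 (blastocysts minus ooplasts), with 90% of them between -2.08 and -0.64, and a scaled stage difference inside that range is of background size. A second scale, the level over background, takes each array's median of these probes as its 0. Oocyte markers (Zp1 to Zp3, Gdf9, Bmp15 and others) summed to 2370 to 3429 units in blastocysts and to at least 1039064 units in ooplasts. Most of the ooplast sum came from Gdf9 and Oosp1. Zp2 and Figla had their highest signal on a young blastocyst array, 221 units on the first and 198 units on the second. Figla was above background on 1 array only, and had 12.6 units in climacteric and 34.6 units in young ooplasts. The other listed oocyte markers were higher on both ooplast arrays than on every blastocyst array. Trophectoderm markers summed to at least 1088370 units in blastocysts and at most 5906 units in ooplasts. Of 10 neuron and neuroendocrine markers, cells in which synaptotagmins are abundant, 5 to 6 were above background on each array. Their sum was 26222 to 51187 units in blastocysts and 6947 to 12204 units in ooplasts, mostly from Chga and Tubb3, while Nefm and Scg2 were above background on no array. Of 8 macrophage markers, 4 to 6 were above background on the blastocyst arrays, 7 on the climacteric ooplast array and 4 on the young one. They summed to 40379 units on the first climacteric blastocyst array, of which Lyz2 alone gave 35632, and to at most 3299 on the other 3. The sum was 8619 units in climacteric ooplasts, mostly from Lyz2 and Fcer1g, and 683 units in young ooplasts. Of 10 cumulus and granulosa cell markers, 4 to 6 were above background on the blastocyst arrays and 5 on each ooplast array, with Kitl on none. They summed to 8954 to 21904 units in blastocysts, mostly from Amhr2, and to 19086 units in climacteric and 20041 units in young ooplasts. Nearly all of the ooplast sum was Cyp19a1, the aromatase of granulosa cells, with 17751 units in climacteric and 18549 units in young ooplasts, beside 364 to 460 units in blastocysts. The part of these cells in the synaptotagmin values was not tested.

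**Figure D1:**
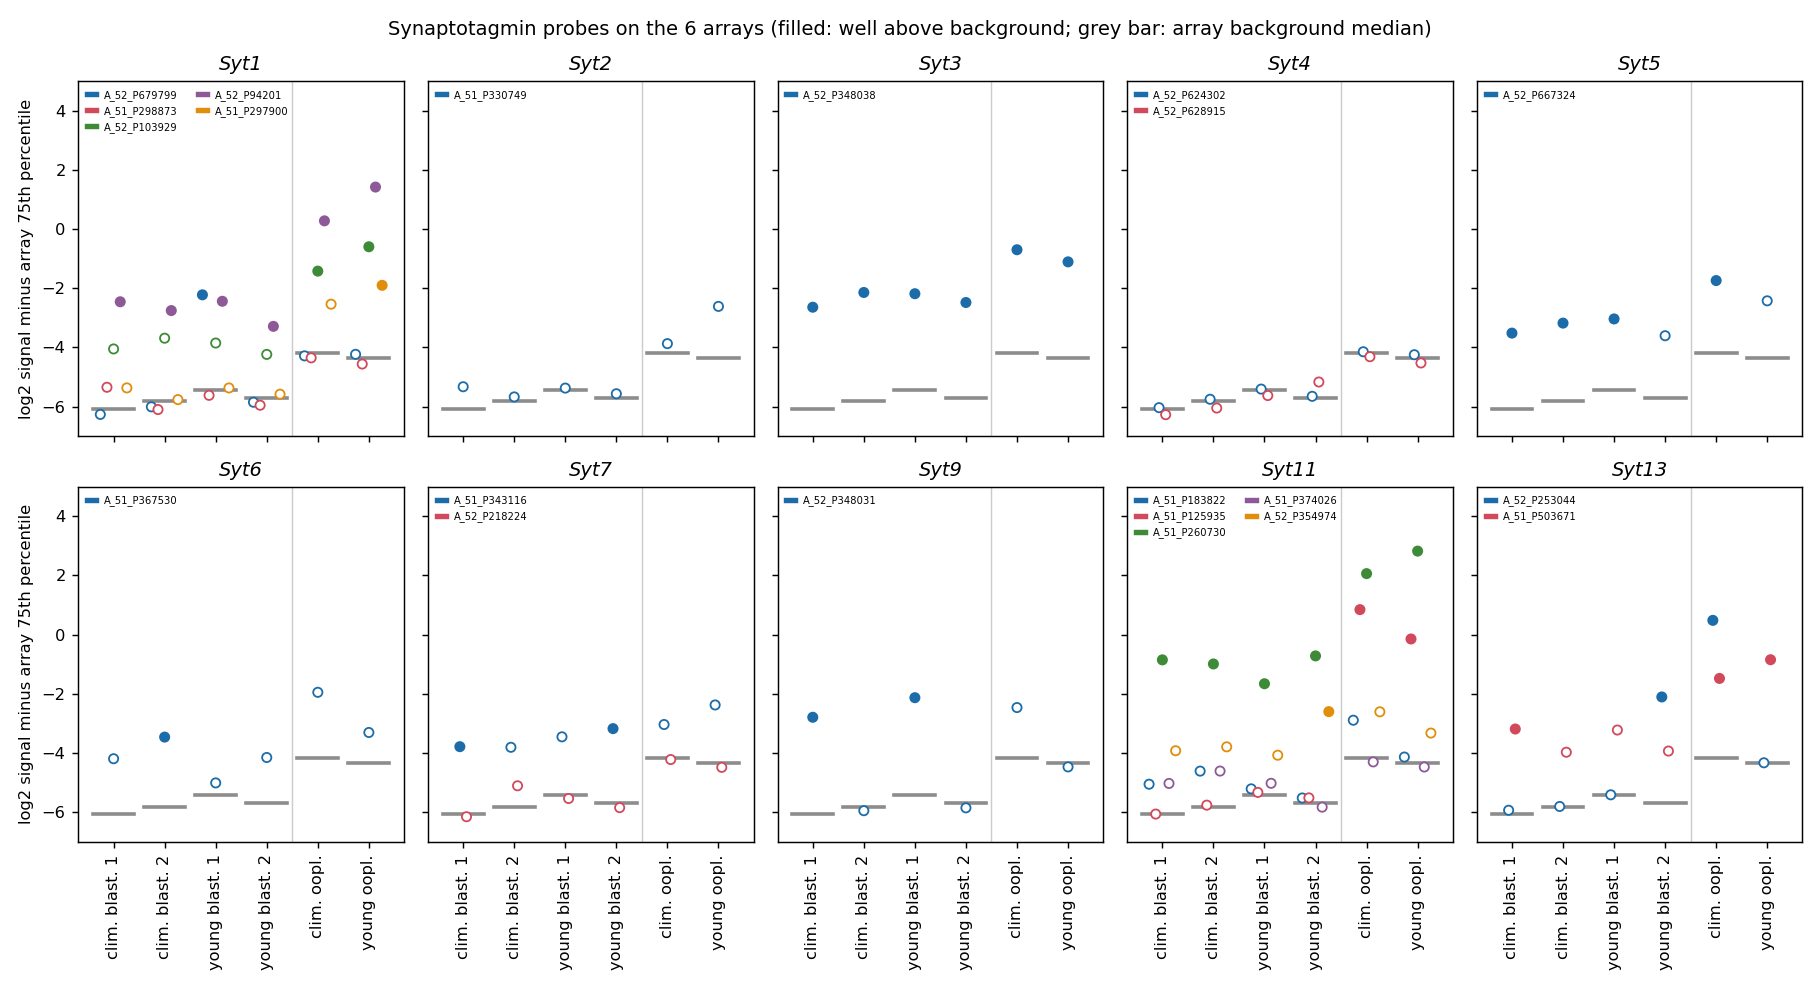
Scaled level (log2 signal minus the 75th percentile of the array, vertical axis) of all 21 synaptotagmin probes on the 6 arrays, 1 panel per gene and 1 colour per probe. Filled points are well above background, and grey bars mark the background median of each array, from -6.07 to -5.43 in blastocysts and from -4.35 to -4.17 in ooplasts; the points of Syt11, Syt1 and Syt3 that are filled on every array lie lower in blastocysts.

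Syt1 is the calcium sensor of fast neurotransmitter release. Its only probe above background on all 6 arrays, A_52_P94201 (mm8, chromosome 10, 108046445 to 108046504, minus strand), had scaled levels of -2.46 and -2.75 in climacteric blastocysts, -2.44 and -3.29 in young blastocysts, 0.28 in climacteric ooplasts and 1.42 in young ooplasts. Its unscaled signal was 194 and 126 units in climacteric blastocysts, 133 and 114 units in young blastocysts, 288 units in climacteric ooplasts and 629 units in young ooplasts. Both ooplast arrays lay above all 4 blastocyst arrays, also in the unscaled signal. The scaled mean was -2.73 ± 0.40 in blastocysts (SD, n = 4) and 0.85 ± 0.81 in ooplasts (SD, n = 2), a difference of -3.58 or 12.0-fold. Over background, the difference was -2.09, or 4.25-fold.

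A second Syt1 probe, A_52_P103929, starts 144074 bases away and was above background on both ooplast arrays and on no blastocyst array. Its scaled levels were -4.05 and -3.69 in climacteric blastocysts, -3.85 and -4.23 in young blastocysts, -1.42 in climacteric ooplasts and -0.60 in young ooplasts. The groups did not overlap, and on the scaled level blastocysts were at least 6.39-fold lower. Such a bound, here and below, takes for each dim array the higher of 2 values, the signal of the probe and the lowest signal called well above background on that array, and sets their mean against the mean of the brighter group. It holds for the scaled level alone, and a bound on a lower blastocyst level is smaller over background, at least 2.27-fold for this probe. The difference of its measured means over background was -1.45, or 2.74-fold.

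The other 3 Syt1 probes were above background on 1 array at most. A_51_P297900, which shares 11 bases with A_52_P103929 and is thus no separate measurement there, was above background on the young ooplast array alone, at -1.90, and stood between -5.76 and -5.37 in blastocysts and at -2.54 in climacteric ooplasts. A_52_P679799 was above background on the first young blastocyst array alone, at -2.22, against -6.26 to -5.85 on the other 3 blastocyst arrays and -4.28 and -4.23 in climacteric and young ooplasts. A_51_P298873 was above background on no array. The 5 probes of Syt1 thus gave different pictures of the same gene, and exon and UTR positions were not analysed here.

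Syt2 is another fast calcium sensor of the family, in nerve terminals. Syt2 (chromosome 1, 136564585 to 136564644) was above background on no array, with scaled levels between -5.67 and -5.33 in blastocysts, and at -3.87 in climacteric and -2.61 in young ooplasts. Syt9 was above background on the first climacteric and the first young blastocyst array, with 153 and 165 units. It had 13.8 and 19.2 units on the second array of each group, 43.1 units in climacteric and 10.6 units in young ooplasts. The first blastocyst arrays of both ages lie on slide 1 and the second ones on slide 2, so the Syt9 signal split with the slide and not with age. Both ooplast arrays also lie on slide 1.

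Syt3 and Syt6 belong to the members that form disulphide-linked dimers and bind calcium, and Syt6 is known from the acrosome reaction of sperm. The Syt3 probe (chromosome 7, 44267166 to 44267607, plus strand) was above background on all arrays, with scaled levels of -2.64 and -2.14 in climacteric blastocysts, -2.18 and -2.48 in young blastocysts, -0.70 in climacteric ooplasts and -1.11 in young ooplasts. The unscaled signal had the other order, with 171 and 193 units in climacteric blastocysts, 159 and 199 units in young blastocysts, 146 units in climacteric ooplasts and 109 units in young ooplasts. Thus the scaled groups did not overlap with ooplasts on top, and the unscaled groups did not overlap with blastocysts on top. The scaled difference was -1.46 (-2.36 ± 0.24 in blastocysts, SD, n = 4, and -0.90 ± 0.29 in ooplasts, SD, n = 2), the difference over background 0.035 and the unscaled one 0.51. Syt3 therefore has no settled direction by stage.

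The Syt5 probe was above background on both climacteric blastocyst arrays (-3.52 and -3.18), on the first young blastocyst array (-3.04) and on the climacteric ooplast array (-1.74). It missed that limit on the second young blastocyst array (-3.60) and on the young ooplast array (-2.42). Its stage difference was -1.25 on the scaled level and 0.24 over background, so the sign turned with the scale. The Syt6 probe was above background on the second climacteric blastocyst array alone, with 77.2 units. On the ooplast arrays the dimmest member spot called well above background had 63.0 units (Syt1) and the brightest one not so called had 61.5 units (Syt6, climacteric ooplasts).

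Syt7 is a high-affinity calcium sensor of slow and asynchronous release and of lysosome exocytosis. Its probe A_51_P343116 was above background on the first climacteric (-3.79) and the second young blastocyst array (-3.18), and not on the other climacteric (-3.81) and young (-3.45) ones or in climacteric (-3.04) and young (-2.38) ooplasts. Over background its stage difference was 0.65, against -0.85 on the scaled level. The second probe, A_52_P218224, was above background on no array.

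Syt4, Syt11 and Syt13 are members that do not act as ordinary calcium sensors: Syt4 and its closest relative Syt11 carry a substitution in the first C2 domain, and Syt13 lacks calcium-binding residues. Both Syt4 probes were above background on no array and stood within 0.53 of the background median on each of the 6 arrays (log2, over background). The stage differences of the 7 member probes that no array measured ran from -2.24 to -0.74 on the scaled level, which spans the shift of the background itself.

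Syt11 is known from the control of endocytosis and vesicle traffic in neurons and microglia. Its probe A_51_P260730 (chromosome 3, 88831727 to 88831786, minus strand) had scaled levels of -0.85 and -0.99 in climacteric blastocysts, -1.66 and -0.72 in young blastocysts, 2.06 in climacteric ooplasts and 2.82 in young ooplasts. The unscaled signal was 589 and 428 units in climacteric blastocysts, 228 and 674 units in young blastocysts, 991 units in climacteric ooplasts and 1663 units in young ooplasts. Both ooplast arrays lay above all blastocyst arrays on either scale. The scaled mean was -1.06 ± 0.42 in blastocysts (SD, n = 4) and 2.44 ± 0.54 in ooplasts (SD, n = 2), a difference of -3.50 or 11.3-fold, and the difference over background was -2.00 or 4.01-fold.

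A second Syt11 probe, A_51_P125935 (88833900 to 88834727), starts 2173 bases away and was above background in ooplasts only. It had 15.9 and 15.7 units in climacteric blastocysts, 17.9 and 24.3 units in young blastocysts, 427 units in climacteric ooplasts and 212 units in young ooplasts. In blastocysts it stood at most 0.18 over the background median, so only a bound can be given, at least 16.6-fold lower on the scaled level and 5.91-fold over background. The remaining 3 Syt11 probes were designed on cDNA clones and start 54968, 60627 and 84857 bases from A_51_P260730. Of these A_52_P354974 was above background on the second young blastocyst array, at -2.60, and the others on no array.

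Syt13 had 2 probes 14827 bases apart, and their profiles differed. A_51_P503671 was above background on the first climacteric blastocyst array and on both ooplast arrays. It had scaled levels of -3.19 and -3.97 in climacteric blastocysts, -3.22 and -3.93 in young blastocysts, -1.48 in climacteric ooplasts and -0.85 in young ooplasts. The stage difference was -2.42, and -0.92 over background, where the 4 blastocyst values (1.76 to 2.88) overlapped the ooplast values (2.69 and 3.50). A_52_P253044 was above background on the second young blastocyst array (-2.11) and in climacteric ooplasts (0.48), and stood between -5.93 and -5.41 on the other 3 blastocyst arrays and at -4.33 in young ooplasts. It separates single arrays from the rest and follows neither stage nor age.

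Counted without a test, 17 of the 21 member probes lay lower on all 4 blastocyst arrays than on both ooplast arrays on the scaled level. Of all 41174 probes on the array, 55.7% did so. Over background 5 of the 21 did, beside 15.0% of all probes. Among the 6 member probes that all arrays of 1 stage or both measured, the count was 6 on the scaled level (41.8% of 20983 such probes), 4 over background (17.5%) and 4 in unscaled signal (13.6%). The 4 that lay lower over background were the 2 probes each of Syt1 and Syt11. Members were chosen for this contrast, so nothing is read from these counts.

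**Figure D2:**
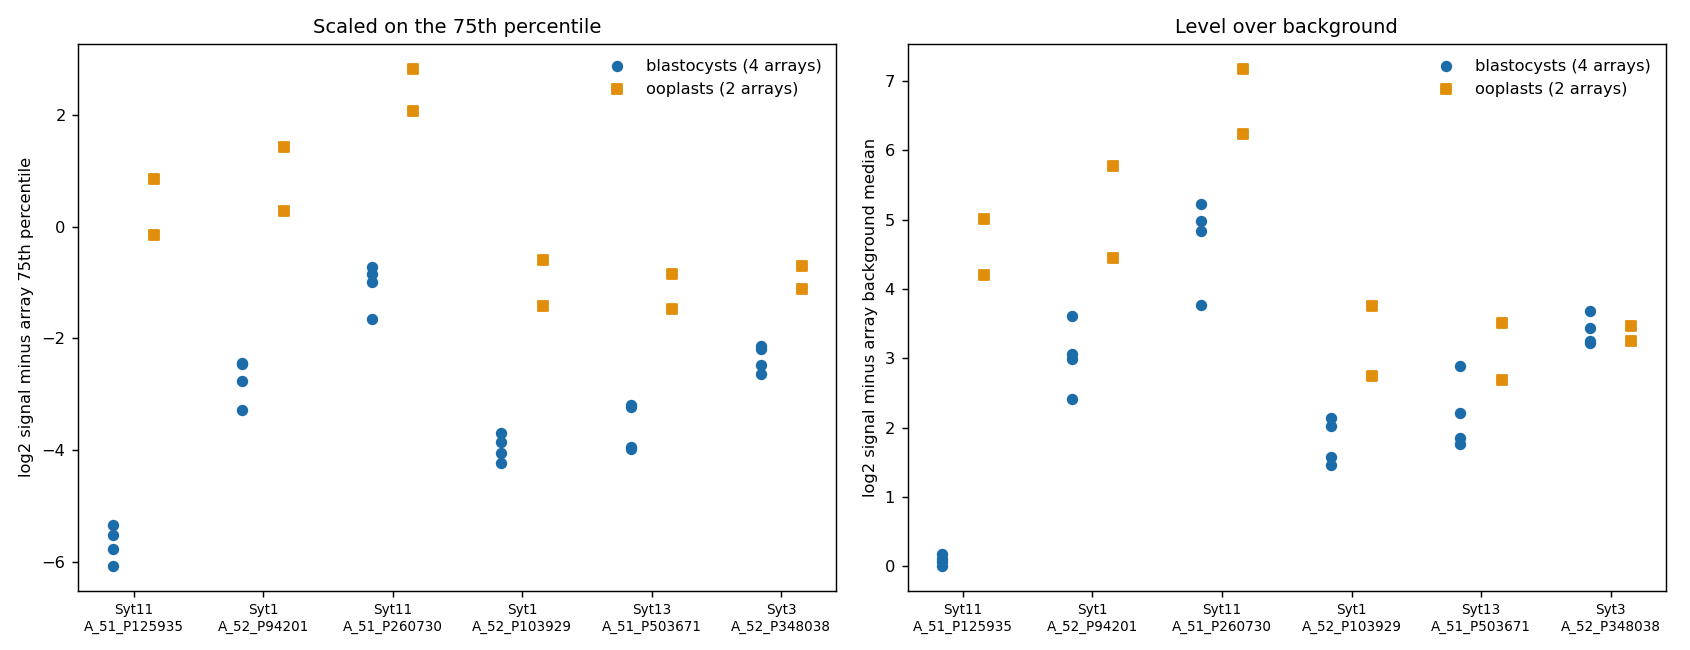
The 6 synaptotagmin probes that all arrays of 1 stage or both measured, as scaled level (left) and level over background (right), in log2. Blue circles are the 4 blastocyst arrays and orange squares the 2 ooplast arrays; the groups are apart for all 6 probes on the left, and overlap on the right for Syt13 and Syt3.

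**Figure D3:**
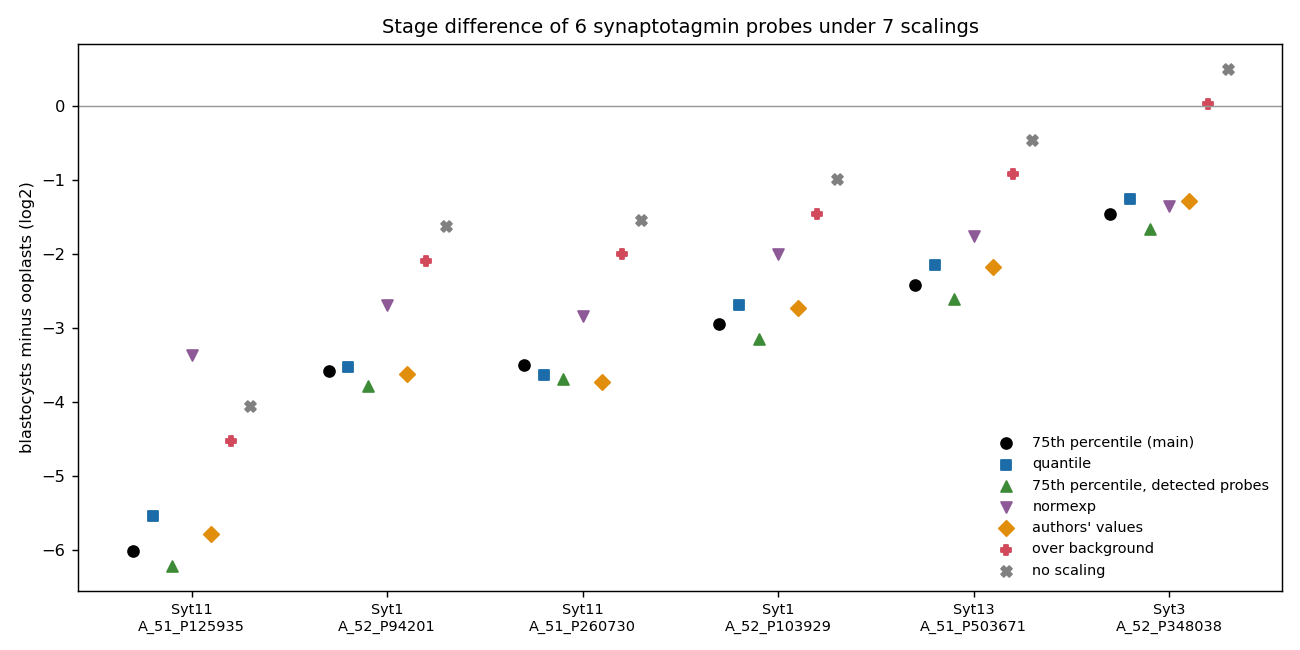
Stage difference (blastocysts minus ooplasts, log2, vertical axis) of the same 6 probes under 7 ways of scaling, with 1 symbol per way. The differences of Syt11 and Syt1 stay below 0 under each of them, from -6.22 to -0.98, where those of A_52_P103929 and A_51_P125935 are taken against blastocyst arrays at which neither was above background, and that of Syt3 lies at 0.035 over background and at 0.51 without scaling.

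Each ooplast array was left out in turn. For Syt11 A_51_P260730 the scaled stage difference then lay between -3.88 and -3.12, and for Syt1 A_52_P94201 it was -3.01 without the young and -4.15 without the climacteric ooplast array. Over background, the same Syt1 differences were -1.43 and -2.75. Either ooplast array thus moved the Syt1 fold over background by over 1.5 times. For Syt3, the value over background was -0.079 without the young and 0.15 without the climacteric ooplast array. Within slide 1, which holds the first blastocyst array of each age and both ooplast arrays, the scaled difference was -3.30 for Syt1 A_52_P94201 and -1.51 for Syt3.

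Other genes whose profile over the 6 arrays was nearest to these members were sought among 13368 probes above background on all arrays, by the root mean square difference of log2 levels centred on their own mean. For Syt11 these were E2f4, which encodes a cell-cycle transcription factor (0.20), the chaperone gene Dnajc3 (0.21) and Dcaf8 (0.21). For Syt1 they were Rdx (0.13), Spin1 (0.18) and the spermine synthase gene Sms (0.20). Rdx encodes the membrane-cytoskeleton linker radixin, and Spin1 is a maternal transcript whose protein binds the meiotic spindle. For Syt3 they were the platelet glycoprotein gene Gp1bb (0.038), Reep2 (0.070) and the zinc-finger gene Ikzf3 (0.071). The measure ranks likeness over 6 arrays and says nothing of shared function.

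Age was compared first in blastocysts, where each age has 2 arrays. Syt1 A_52_P94201 averaged -2.61 ± 0.21 in climacteric and -2.86 ± 0.60 in young blastocysts (SD, n = 2 each), a difference of 0.26 ± 0.40 (SE) with an adjusted p of 1.00 (limma, Benjamini-Hochberg). Syt11 A_51_P260730 averaged -0.92 ± 0.10 in climacteric and -1.19 ± 0.66 in young blastocysts (SD, n = 2 each), a difference of 0.27 ± 0.41 (SE, adjusted p = 1.00). Both differences were smaller than the spread between the young replicates. Syt3 differed by -0.058 ± 0.34 (SE) and Syt5 by -0.026 ± 0.35 (SE), each with an adjusted p of 1.00. No other member probe was above background on every array of 1 blastocyst group. Over all 21649 probes tested, 0 passed (0.0%), while 1213 (5.6%) had an unadjusted p under 0.05.

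Within slides the age differences of these members ran both ways. On slide 1 and slide 2, climacteric minus young was -0.017 and 0.53 for Syt1, -0.46 and 0.34 for Syt3, -0.48 and 0.43 for Syt5, and 0.81 and -0.27 for Syt11. The sign turned between the slides for all 4 probes. Each slide holds 1 array per age, so these values carry no test.

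In ooplasts each age had 1 array, so there is no replicate check and no test. Syt1 was lower in climacteric than in young ooplasts on both probes that the 2 arrays measured, by -1.14 (A_52_P94201) and -0.82 (A_52_P103929). Syt11 gave opposite values, -0.76 on A_51_P260730 and 0.99 on A_51_P125935, so the direction depends on the probe. Syt3 differed by 0.41 and Syt13 A_51_P503671 by -0.63. Of the 15519 probes that both ooplast arrays measured, 17.3% differed by 2-fold or more, 7.38% higher and 9.92% lower in climacteric ooplasts. Of the 6 member probes so measured 1 did, the Syt1 probe A_52_P94201, a share near that of all probes. On probes above background in climacteric ooplasts alone, Syt5 was at least 1.47-fold and Syt13 A_52_P253044 at least 6.87-fold higher there, while the other Syt13 probe stood at -0.63.

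The difference of the age effects itself, ooplasts minus blastocysts, was tested over all 6 arrays, with the single ooplast arrays assumed to vary like the blastocyst replicates. No member passed. Among 24180 probes 103 did (0.426%), 5 of them higher (0.0207%) and 98 lower (0.405%), and 8.95% had an unadjusted p under 0.05. The Syt1 probes A_52_P94201 and A_52_P103929 stood at -1.40 ± 0.70 (SE, adjusted p = 0.70) and -0.996 ± 0.58 (SE, adjusted p = 0.75), and the Syt11 probes at 1.48 ± 0.53 (SE, adjusted p = 0.51, A_51_P125935) and -1.03 ± 0.72 (SE, adjusted p = 0.82, A_51_P260730). Syt3 stood at 0.47, Syt5 at 0.71, Syt13 A_51_P503671 at -0.63, and Syt1 A_51_P297900 at -0.55, with adjusted p from 0.86 to 0.91. Syt13 A_52_P253044 had the largest value of the family, 6.92 ± 1.89 (SE, adjusted p = 0.34), and rests on arrays at background.

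**Figure D4:**
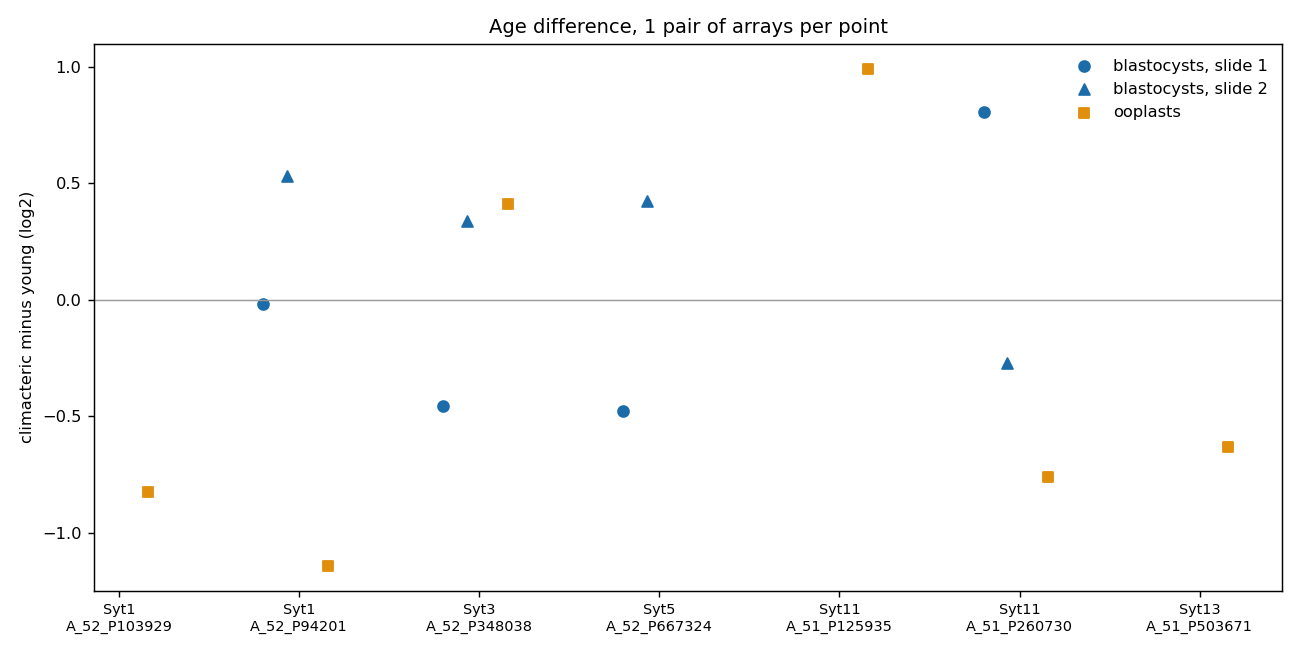
Age difference (climacteric minus young, log2, vertical axis) of each synaptotagmin probe measured in a pair of arrays. Blue circles are blastocysts on slide 1, blue triangles blastocysts on slide 2 and orange squares ooplasts, each the difference of 1 array from 1 array; the blastocyst values change sign between slides for the 4 probes that have them, and the Syt11 probes lie at 0.99 and -0.76 in ooplasts.

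Other genes of regulated exocytosis were read from the same stage fit, with 1 brightest kept probe per gene. Over all 15605 genes, 35.3% were called higher and 38.7% lower in blastocysts, and the median stage difference was -0.26 on the scaled level and 1.23 over background. Over the 20983 probes tested the shares were 35.6% and 38.2%. In all, 5 lists of 135 genes held 104 measured genes, of which 40 were higher, 44 lower and 20 did not pass (limma, adjusted p under 0.05). The change from the scaled level to the level over background shifts every stage value by the same amount, the difference of -1.49 between the background medians of the stages, so a gene near 0 has no settled direction. Of 29 named genes with exact values, 7 moved by over 1.5 times when 1 array was left out, and their values are given.

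Relatives of the synaptotagmins with C2 domains, or with the Rab-binding part of that group, were lower more often than higher: of 13 measured genes, 10 were lower, 2 higher and 1 did not pass. Over the alternatives run, some of which change the genes measured, 4 to 14 were called lower and 1 to 4 higher. The median was -1.46 on the scaled level and 0.029 over background, and 4 of the 10 lower genes, Syt10, Syt16, Sytl5 and Esyt1 (picked out after their values were seen), lay above 0 over background. The Syt10 probe was above background on all 4 blastocyst arrays and on neither ooplast array, so its call depends on the scale. The largest fall was that of Sytl4, which encodes the secretory granule protein granuphilin, an effector of Rab27. It stood at -2.50 and -5.76 in climacteric blastocysts, -5.38 and -5.61 in young blastocysts, 7.02 in climacteric ooplasts and 6.93 in young ooplasts. It was above background on the first climacteric blastocyst array only, and the difference of -11.79 ± 0.87 (SE, adjusted p = 4.9e-05) depends on the background of the other 3. It lay between -12.58 and -11.15 when single arrays were left out, without the first climacteric blastocyst array and without the young ooplast array.

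Sytl2, another Rab27 effector, was above background in ooplasts only, and was at least 63.4-fold lower in blastocysts. Rph3a, which encodes the Rab3 effector rabphilin, fell by 5.06 on the scaled level (SE 0.25, adjusted p = 1.5e-05) and by 3.56 over background, with all 4 blastocyst arrays between -2.02 and -1.77 and the ooplast arrays at 3.16 and 3.18. A second Rph3a probe, measured on all arrays, differed by -1.80 on the scaled level and -0.31 over background. Mctp1, a multiple C2 domain gene, was at least 5.35-fold lower. The genes that were higher in blastocysts were Esyt3 (3.09 ± 0.41, SE, adjusted p = 0.00065), an extended synaptotagmin of contacts between endoplasmic reticulum and plasma membrane, and Doc2a (0.99 ± 0.31, SE, adjusted p = 0.025), a calcium sensor of spontaneous release. A second Esyt3 probe, above background on 2 blastocyst arrays, gave -0.40, and 1.10 over background. Doc2a did not pass when either ooplast array was left out (adjusted p = 0.10 and 0.13), nor without the first young (0.051), the first climacteric (0.059) or the second climacteric blastocyst array (0.053). It also missed the threshold when scaled on detected probes (0.80, adjusted p = 0.057).

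Syt14, a family member that does not bind calcium and lies outside the 10 genes, stood at 2.47 and 2.25 in climacteric blastocysts, 3.45 and 4.94 in young blastocysts, 6.12 in climacteric ooplasts and 7.70 in young ooplasts. On this probe both blastocyst arrays and the ooplast array of the climacteric group lay below their young counterparts. The age difference in blastocysts was -1.84 ± 0.55 (SE) and did not pass (limma, adjusted p = 0.74). Its stage difference was -3.64 on the scaled level and -2.14 over background, and its second probe was above background on no array. Rph3al, a Rab effector of granules also called Noc2, stood at -1.08 in climacteric and 0.69 in young ooplasts. These 2 were the measured relatives at least 2-fold apart by age in ooplasts, both lower in climacteric ones, on 1 array per age.

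**Figure D5:**
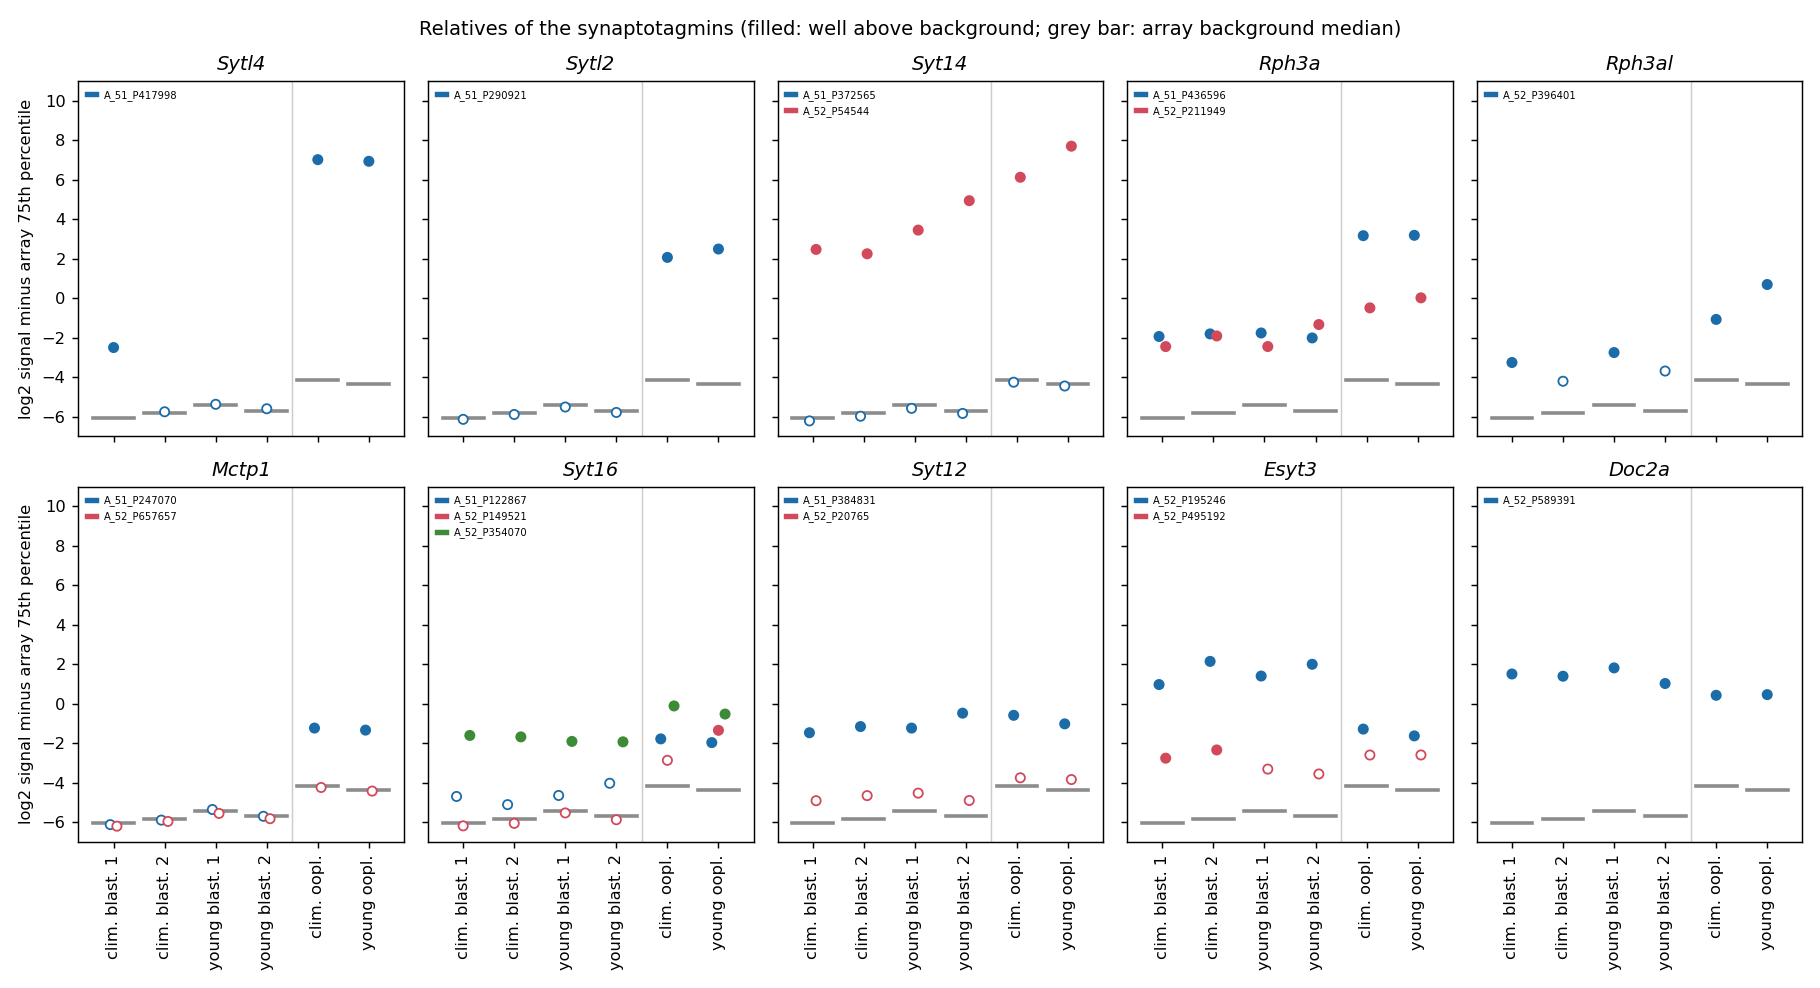
Scaled level (log2 signal minus the 75th percentile of the array, vertical axis) of 10 relatives of the synaptotagmins on the 6 arrays, 1 colour per probe. Filled points are well above background and grey bars mark the background median of each array; Sytl4 stands at 7.02 and 6.93 in ooplasts and at -5.76 to -2.50 in blastocysts, and Esyt3 is higher in blastocysts on its brightest probe.

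The SNAREs, the fusion proteins on which synaptotagmins act, moved in both directions: of 31 measured genes 12 were higher, 10 lower and 9 did not pass. The direction of the list as a whole is not settled, with a median of 0.22 on the scaled level and 1.71 over background. The vesicle SNAREs Vamp3 and Vamp8 and the plasma membrane SNARE Stx4a were higher in blastocysts, by 4.90 ± 0.31, 4.78 ± 0.39 and 4.80 ± 0.27 (log2, SE), and over background by 6.39, 6.27 and 6.29. A second Vamp3 probe gave -4.94, so the direction of that gene depends on the probe. Stx17, a SNARE of autophagosomes, was at least 4.58-fold higher. Vamp4 and Stx6, of the trans-Golgi network and endosomes, were lower by -4.70 ± 0.48 and -4.54 ± 0.39 (log2, SE), while another Vamp4 probe, above background on the 4 blastocyst arrays, gave 1.93.

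Vamp1, a synaptobrevin of synaptic vesicles, was lower by -6.69 ± 1.17 (SE, adjusted p = 0.0022). It stood at -1.62 and -2.01 in climacteric blastocysts, -0.97 and 3.56 in young blastocysts, 4.14 in climacteric ooplasts and 8.72 in young ooplasts. With single arrays left out the difference lay between -7.56 (without the second young blastocyst array) and -5.61 (without the first one), and it was -5.95 without the young and -7.43 without the climacteric ooplast array. Stx3, an apical and exocytic syntaxin, was called lower (-4.48 ± 1.27, SE, adjusted p = 0.017) through the young ooplast array alone, where it stood at 7.56 against -0.13 in climacteric ooplasts. Without the young ooplast array it was -1.43 (adjusted p = 0.068), without the climacteric one -7.53, without the first young blastocyst array -3.80, and over background -2.99 (adjusted p = 0.11). Other Stx3 probes measured on all arrays gave 0.046 and -1.50. Stx3 and Vamp1 were also the SNAREs named for age in ooplasts, at -7.69 and -4.58 (climacteric minus young), with no test. The other Stx3 probes measured on all arrays differed there by -0.43 and -0.80, so the size of the Stx3 value depends on the probe.

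Among SNARE regulators, 9 of 23 measured genes were higher, 11 lower and 3 did not pass, with a median of -0.81 on the scaled level and 0.68 over background. The endosomal and lysosomal Sec1 family genes Vps45 and Vps33a were at least 10.6-fold and 20.3-fold higher in blastocysts, and Stxbp3, a partner of syntaxin 4, was higher by 3.30 ± 0.44 (SE, adjusted p = 0.00063), by 2.54 without the young and by 4.06 without the climacteric ooplast array. The Stxbp3 probe was above background on 1 ooplast array, so the size of its difference depends on background. Stxbp2 was at least 1.99-fold higher, and did not pass after normexp correction (0.54, adjusted p = 0.27). The lower genes named were 3 that ready vesicles for fusion, and an inhibitor. Unc13c, of the Munc13 priming factors, was at least 74.7-fold lower, and Rims1, an active zone scaffold that binds Rab3, fell by 7.20 (SE 0.29, adjusted p = 1.1e-05). The Rims1 probe was above background on 1 of 4 blastocyst arrays, so that size depends on background, and a second probe, measured on 3 blastocyst arrays and 1 ooplast array, gave -1.21, and 0.29 over background. Unc13b, also a Munc13 gene, fell by 4.58 (SE 0.33, adjusted p = 4.4e-05). Other Unc13b probes measured on both ooplast arrays gave -6.90 and -4.14, while its probe A_52_P338479, above background in blastocysts only, gave 2.68. Stxbp5, which encodes tomosyn, an inhibitor of SNARE assembly, fell by 4.44 (SE 0.53, adjusted p = 0.00038), also with 1 of 4 blastocyst arrays above background. Another Stxbp5 probe, above background in ooplasts only, gave -5.05. In ooplasts Stxbp5 was 1.79 higher in climacteric than in young, with 1 array per age. Its probe above background in ooplasts only differed by 0.15, so the size depends on the probe. Nsf, the ATPase that takes SNARE complexes apart, was -1.33 in climacteric against young ooplasts.

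Of 26 measured genes of the Rab3, Rab27 and exocyst list, 12 were higher, 8 lower and 6 did not pass, with a median of 0.82 on the scaled level and 2.31 over background. The 4 lower genes named were 3 Rab genes of secretory granules and a regulator of Rab3. Rab3d fell by 6.90 (SE 0.25, adjusted p = 9.5e-06) with levels between -0.85 and -0.19 in blastocysts and at 6.77 in climacteric and 6.07 in young ooplasts. Its second probe gave -1.28, and 0.21 over background. Rab27a was at least 15.2-fold lower on 1 probe, while another, above background on 3 blastocyst arrays and on neither ooplast array, gave -0.49, and 1.01 over background. Rab3b fell by 5.35 (SE 0.61, adjusted p = 0.00031), and Rab3gap2, of the complex that switches Rab3 off, fell by 4.63 (SE 0.34, adjusted p = 4.6e-05). The higher genes named were of the exocyst and of recycling. Exoc2 was at least 30.0-fold higher, Exoc8 was higher by 5.29 ± 0.25, Ralb, a regulator of the exocyst, by 5.13 ± 0.46 and the recycling endosome gene Rab11b by 5.07 ± 0.46 (log2, SE, adjusted p from 1.4e-05 to 0.00011). Without the young ooplast array Ralb stood at 4.25 and Rab11b at 5.86, and without the climacteric one at 6.00 and 4.28. The Rab11b probe was above background on 1 ooplast array. A second Exoc2 probe, measured on all arrays, gave -0.61. Between the ooplast ages Ralb stood at 1.77, Rab8a at -2.92 and Rala at -1.08 (climacteric minus young, no test). A second Rala probe, measured on both ooplast arrays, differed by -0.29.

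Of 11 measured genes that share vesicles with synaptotagmins, 5 were higher, 5 lower and 1 did not pass, with a median of -0.32 on the scaled level and 1.18 over background. Syngr1, which encodes a synaptogyrin, was higher by 8.29 ± 0.31 (SE, adjusted p = 9.5e-06), with levels from 7.46 to 7.90 in blastocysts and -0.22 and -0.85 in climacteric and young ooplasts. The secretory carrier membrane protein genes Scamp4, Scamp1 and Scamp5 were higher by 2.17 ± 0.29, 1.32 ± 0.33 and 1.12 ± 0.27 (log2, SE). Other Scamp4 probes measured on all arrays gave 0.77 and 0.081. Scamp1 did not pass without either ooplast array (adjusted p = 0.072 and 0.062) or within slide 1 (1.23, adjusted p = 0.054), nor did Scamp5 without the climacteric ooplast array (0.097) or within slide 1 (1.07, adjusted p = 0.076). A second Scamp1 probe, measured on all arrays, gave 2.72, and a second Scamp5 probe, above background on 1 ooplast array alone, -3.29. The synapsin gene Syn2 fell by 2.96 (SE 0.27, adjusted p = 0.00012), and did not pass without scaling (-0.997, adjusted p = 0.052). Syngr3 (-1.90), Syngr2 (-1.62) and Scamp2 (-1.50) were called lower on the scaled level only: over background they stood at -0.41, -0.13 and -0.0096 and did not pass, and without scaling they lay above 0. Other Scamp2 probes gave 2.08 (measured on all arrays) and 1.27 (on the 4 blastocyst arrays), so the direction of that gene depends on the probe. Syngr2 was -0.84 without the young ooplast array (adjusted p = 0.15) and -2.40 without the climacteric one.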

How the data were processed

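Per the file headers, the authors scanned 6 single-colour arrays and extracted spots on mm8 coordinates, and the submitters' processing notes name Agilent Feature Extraction 9.5 for this. The deposited processed signal is an intensity, background-subtracted and not scaled between arrays, and log2 values deposited by the authors in a table equal a quantile normalization of it. Control spots were left out. Spots flagged as outliers were left out only where the probe had another spot that was not flagged. With 43379 non-control spots for 41174 probes, most flagged spots therefore stayed in. The 75th percentile and the calls above background used flagged spots too. The log2 intensity minus each array's 75th percentile was fitted per probe with limma 3.58.1 (R 4.3.3). Tests were two-sided and moderated, with a Benjamini-Hochberg adjusted p under 0.05. Probes entered a fit where all arrays of 1 compared group or more were well above background. Stage used 6 arrays with age as a term, age the 4 blastocyst arrays, and age by stage 4 group means. Names came from RefSeq (GRCm38.p6): of 41174 probes 24375 were named by accession and 8072 kept the name in the file. The number of arrays limits the precision. The p-values take in only the spread of these samples, which may be technical. The fits were tested on simulated data. Genes of each list were named by size: up to 4 higher and 4 lower by stage, and up to 2 each way at least 2-fold apart between ooplast arrays. The synaptotagmins and the lists were chosen with earlier results of these data known. Replicate numbers of the blastocyst groups correlated at 0.19 in their deviations over 2 pairs, too few to pair them. Alternatives covered scaling, background correction, the dim-probe filter, the slide and arrays left out. Probe and protein sequences and exon positions were not analysed here.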

Additional observations from a re-analysis of the deposited data

Results flagged for a closer look

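In the 4 blastocyst arrays, a value was singled out where its gap to the nearest of the others, over the range of the 4, passed Dixon's 95% critical value. Of the 21 member probes 2 did so, and chance alone singles out about 1 in 20 such groups. The Syt1 probe A_52_P679799 stood at -2.22 on the first young blastocyst array, far above the other 3 (gap over range 0.90), and was above background there only. The Syt13 probe A_52_P253044 stood at -2.11 on the second young blastocyst array (gap over range 0.86), where its signal was 258 units against 15.2 to 17.4 on the other 3. For both genes other probes showed no such value on those arrays. The cause was not tested.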

How the results depend on the processing

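The stage calls (7460 higher, 8015 lower) became 3785 higher with only probes measured on all 6 arrays, 21611 lower with no filter on dim probes, 11683 higher and 3438 lower over background, and 13247 higher and 2865 lower with no scaling. The last pair of scales was chosen after seeing the data. For the lists (40 higher, 44 lower) these were 23 lower over background, and 61 higher and 21 lower with no scaling. Under the other alternatives the list counts moved too. Genes called higher were 1 to 2 C2 relatives, 10 to 14 SNAREs, 3 to 9 SNARE regulators, 7 to 13 Rab and exocyst genes and 2 to 5 vesicle partners. Genes called lower were, in the same order, 4 to 14, 6 to 13, 6 to 16, 7 to 9 and 4 to 8. The Syt3 stage difference turned sign over background (0.035) and with no scaling (0.51), while the other 5 member probes in the stage fit kept theirs under all alternatives run. Age in blastocysts gave 0 calls except with no scaling (17 higher, 9 lower). The 4 members tested for age passed under none of the alternatives, with adjusted p from 0.58 to 1.00. With the replicate block there were 0 calls, as without it. The age by stage calls (5 higher, 98 lower) became 0 and 0 after quantile normalization, in the authors' values and over background, and when any 1 blastocyst array was left out (0 to 0 in both directions). They were 272 lower with normexp, 2 higher and 47 lower with no filter, 2 higher and 157 lower with probes measured on all arrays, 12 higher with 1 probe per gene, and 18 higher and 222 lower with no scaling. Without an ooplast array this test could not be fitted. Between the ooplast ages (1146 higher and 1539 lower at least 2-fold) the counts were 1725 higher when scaled on detected probes, 534 higher with normexp, 714 higher over background, and 3664 higher and 3308 lower with no filter. The causes were not tested.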
